A study of Mus musculus with 66 samples.

Results

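Blood mononuclear cells of mouse pups kept in high oxygen were compared with those of pups kept in room air on postnatal day 12 (P12), the day on which the oxygen exposure ended. The comparison held 21 of the 66 arrays of the series, chosen by their titles: 10 labelled P12 hyperoxia and 11 labelled P12 normoxia. All pups were C57BL/6 mice with no genetic change. Hyperoxia was 75% oxygen from P7 to P12, normoxia was 21% oxygen over the same days, and both groups were bled at P12. This exposure is the oxygen-induced retinopathy (OIR) model, in which high oxygen stops the growth of retinal vessels. Each array carried RNA of 1 pup's blood cells, separated on a density gradient after cardiac puncture, against a universal mouse reference RNA that was the same on every array. Whole litters were randomised to oxygen or air. Litter and sex are not in the labels, so litter could not enter a test, and p-values may be too small where pups shared one.

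In room air the oxygen content of blood rises sharply at birth, and the formation of red cells slows for some time. The hormone erythropoietin sets the pace of this process. It keeps red cell precursors alive while they switch on, under the factors Gata1 and Klf1, the genes for haemoglobin, for haem and for the red cell membrane. The youngest red cells, reticulocytes, still carry much of this RNA after they enter the blood. Other leukocyte genes read out stress: the factor Atf4 switches on enzymes of amino acid supply, interferons switch on antiviral genes, and the factor NF-kB switches on chemokines and cytokines.

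Values are log2 ratios of the blood signal to the reference signal, so a value of 0 means equal signals and a difference of 1 is a doubling. Cy3 was read as the blood channel although the labels name Cy5. Hba-a1, an alpha globin, read at least 17.71 (log2 intensity) in Cy3 and at most 11.99 in Cy5 on the 21 arrays, and Cy5 signals correlated better between arrays than Cy3 signals (median r 0.992 against 0.957). If the labels were right, every direction given here would turn round. Of 56605 probes, 28584 were well above background in Cy3 on at least 0.5 of the arrays of 1 group and were tested, representing 13828 named genes. Detected probes made up 42.4% to 55.4% of all in hyperoxia (median 50.2%) and 33.4% to 52.1% in normoxia (median 44.6%), and this share was higher in hyperoxia on 6 of the 7 slides that held both groups. The arrays lay on 8 slides, and 1 slide held normoxia replicate 1 alone. The number of pups limits the precision.

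Without slide, limma called 0% of the 28584 probes at an adjusted p under 0.05 (0 probes, lowest adjusted p 0.160), although 5754 passed 0.05 before adjustment. When slide was a block, which compares pups hybridised on the same slide, 5936 probes (20.8%) passed: 2456 were higher in hyperoxia (8.59%) and 3480 lower (12.2%). All 5936 had the same sign without slide, but both fits used the same arrays and values, so this is no separate support. With slide as a random block 762 passed, and in a fit of all 6 groups of the series with slide 1757 passed. Arrays of 1 slide resembled each other. Deviations from the group means correlated with a median r of 0.384 between hyperoxia and normoxia arrays on 1 slide and of -0.0902 between arrays on different slides, and the median residual SD was 0.225 without slide and 0.185 with it. By gene, taking the brightest tested probe, 3279 genes passed (23.7%), of which 1548 were higher (11.2%) and 1731 lower (12.5%). "Rose" and "fell" are used below only of genes that passed with slide as a block. Slide counts given for these genes come from the same arrays as the calls, so they describe the spread and add no support. The count rested on few pups. Leaving out 1 array gave 979 probes without normoxia replicate 8, 1613 without normoxia replicate 5 or without hyperoxia replicate 5, 2303 without hyperoxia replicate 3, 2469 without normoxia replicate 4, 2620 without hyperoxia replicate 2 or normoxia replicate 10, and 3946 without hyperoxia replicate 10.

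The groups overlapped for nearly every probe. The only probe whose lowest hyperoxia value lay above its highest normoxia value, 0.0035% of those tested, belonged to Cep295, a centriole gene, at -0.10 against -0.18.

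The groups differed in the level of the whole array before any scaling, which bears on each direction below. The median unscaled log2 ratio of the tested probes ran from 0.16 to 1.25 in hyperoxia and from -0.13 to 0.82 in normoxia, and it was higher in hyperoxia on 7 of 7 slides. Loess normalisation brings the arrays to a common level at each intensity, and the median difference of all probes was then 0.01. When each array was only centred on its median, the median difference of the tested probes within slides was 0.33 and that of the named genes 0.49, and 97.5% of the called probes were higher against 41.4% with loess. With the signals of the scanner software 48.5% were higher, and with Cy3 alone 55.5%. Cy3 alone was quantile-normalised, which gives every array the same set of values. This scaling can therefore show little difference for the brightest probes, such as those of globins. Where a list is set against all genes below, both were taken under the same scaling. A modest fall with loess can stand above 0 under median centring, and the value is given beside each gene of the naming rule for which it did. Other list members were not examined under each scaling.

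Genes of the red cell lineage were lower in hyperoxia as a group. Of 17 tested red cell membrane genes 11 fell and 0 rose, of 13 haem synthesis genes 7 fell, of 12 genes of red cell remodelling 9 fell, of 12 erythroid factors and receptors 6 fell, and of 7 globin genes 5 fell, again with 0 rises. The shares called were 50% to 75%, beside 23.7% of all genes called and 12.5% called lower. Median log2 differences of these lists lay between -0.71 and -1.05, beside 0.02 for all genes. Relative to all genes the 5 medians stayed below 0 under median centring (-0.48 to -0.72), with the software's signals (-1.04 to -1.32) and with Cy3 alone (-0.11 for globins, -0.72 to -0.93 for the rest). In absolute terms they came close to 0 under median centring, from -0.22 to 0.01. With the percentage of detected probes as a covariate the 5 medians lay between -0.09 and -0.27. The mean of the 61 tested genes of these lists ran from 1.70 to 3.25 in hyperoxia (median 2.72) and from 2.20 to 3.85 in normoxia (median 3.33), and it was lower in hyperoxia on 7 of 7 slides. Before scaling the same mean ran from 2.62 to 3.82 in hyperoxia and from 2.91 to 3.76 in normoxia and was lower on only 3 of 7 slides. The measured fall is therefore one relative to the other transcripts of the same pup. In bulk RNA, fewer cells of a type and less RNA per cell cannot be told apart.

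**Figure D1:**
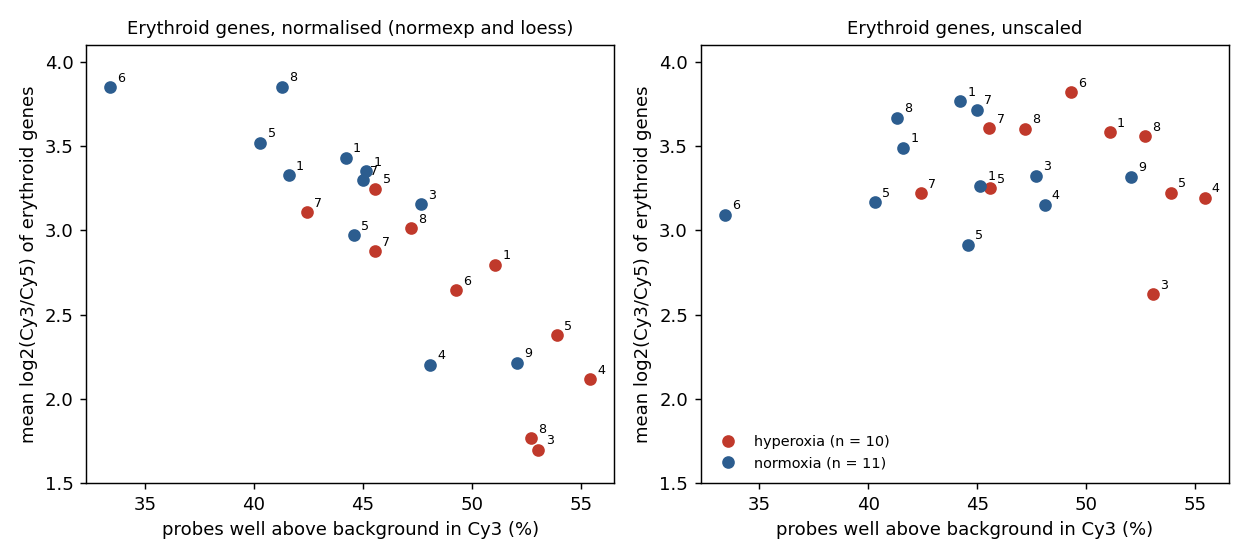
Each point is 1 array at P12, red for hyperoxia (n = 10) and blue for normoxia (n = 11), with its slide number beside it. The x axis is the percentage of probes detected above background in Cy3, and the y axis is the mean log2(Cy3/Cy5) of 61 erythroid genes after loess (left) and before scaling (right). After loess the hyperoxia arrays lie lower (median 2.72 against 3.33) and further right. Before scaling the groups overlap over most of their range.

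Within the lineage, 5 of the 7 tested globin genes fell. Hbb-b1, a beta globin, ran from 6.24 to 9.04 in hyperoxia (median 7.99) and from 7.22 to 10.71 in normoxia (median 9.11), a log2 difference within slides of -1.19 ± 0.32 (SE, adjusted p = 0.0262). The groups overlapped broadly, and 1 of 7 slides went the other way. Hba-a1 gave -1.17 ± 0.34 and Hba-a2 -1.16 ± 0.35. Both are near-identical gene copies whose probes can share signal, and so are the adult beta globins. With Cy3 alone Hba-a1 stood at 0.01 and Hbb-b1 at -0.40. Hba-a1 is a very bright probe (at least 17.71 in Cy3), so its value near 0 can be set by the quantile scaling. Embryonic Hbb-y, a gene low in this blood, fell by 0.28 (adjusted p = 0.0317).

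Membrane and surface genes fell alongside. Rhag, an ammonium channel of the Rh complex, ran from 0.63 to 1.89 in hyperoxia (median 1.17) and from 1.20 to 3.18 in normoxia (median 2.08), a difference of -0.98 ± 0.19 (adjusted p = 0.0145), and was lower on 7 of 7 slides. Slc4a1, the band 3 anion exchanger, differed by -0.91 ± 0.26 (adjusted p = 0.0282). Among genes of late red cell remodelling, Xpo7, a nuclear exporter used when the nucleus condenses, differed by -1.16 ± 0.22 (adjusted p = 0.0135), but its other tested probe stood at 0.22 (adjusted p = 0.216). Bnip3l, which clears mitochondria from reticulocytes, differed by -1.19 ± 0.38 (adjusted p = 0.0410).

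Regulators of the lineage fell too. Klf1, the factor that switches on adult beta globin, ran from 0.01 to 0.31 in hyperoxia (median 0.22) and from 0.17 to 0.85 in normoxia (median 0.48), a difference of -0.33 ± 0.06 (adjusted p = 0.0121). It was lower on 7 of 7 slides. The software's signals gave -1.11 for it, and the cause of the gap was not tested. Gata1, the master factor of red cells and megakaryocytes, ran from 1.74 to 3.15 in hyperoxia (median 2.34) and from 1.92 to 3.55 in normoxia (median 2.79), a difference of -0.72 ± 0.17 (adjusted p = 0.0183). Zfpm1, its partner, differed by -0.77 ± 0.21, Nfe2 by -0.71 ± 0.18 and the transferrin receptor Tfrc by -1.14 ± 0.35, all called. Under median centring Zfpm1 stood at 0.04 and Nfe2 at 0.01, and the other probe of Zfpm1 gave -0.06 with loess.

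Haem synthesis held the gene that stood out most. Cpox, coproporphyrinogen oxidase, makes protoporphyrinogen in the mitochondrion. It ran from -0.78 to 0.61 in hyperoxia (median -0.37) and from -0.02 to 2.92 in normoxia (median 1.31). Only 3 of the 11 normoxia pups lay below the highest hyperoxia pup, and 9 of the 10 hyperoxia pups lay at or below 0.01. Its difference was -1.61 ± 0.27 within slides (adjusted p = 0.0121) and -1.53 ± 0.27 without slide (adjusted p = 0.160, unadjusted 1.33e-05), the smallest unadjusted p of all genes without slide. It was lower on 7 of 7 slides, by 0.46 to 3.14. It stayed called whichever array was left out, and its value was -2.22 with the software's signals, -1.02 under median centring and -1.65 with Cy3 alone. The other called members were Alas2, the first and rate-limiting enzyme of red cell haem (-1.06 ± 0.30), Fech, which inserts the iron (-1.10 ± 0.34), Ppox (-0.73 ± 0.18), Uros (-0.56 ± 0.16), the mitochondrial iron importer Slc25a37 (-1.11 ± 0.37) and the transporter Abcb6 (-0.31 ± 0.07, but 0.07 under median centring). Cpox differed more than the median of its list, -0.82.

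The 250 bases before the start of Cpox are shown because it had the smallest p among the falls and its lineage is driven by GATA factors. The sequence is RefSeq's, build GRCm38.p6, chr16:58669958-58670207, plus strand, 5′ to 3′. Capitals mark the letters CTTATC, which read GATAAG on the other strand, beginning 87 bases before the start.
Cpox: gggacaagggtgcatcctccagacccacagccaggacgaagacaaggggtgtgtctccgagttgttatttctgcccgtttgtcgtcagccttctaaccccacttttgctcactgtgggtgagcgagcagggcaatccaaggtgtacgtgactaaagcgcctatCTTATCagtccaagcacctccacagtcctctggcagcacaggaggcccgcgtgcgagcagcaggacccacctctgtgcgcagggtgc
GATAAG, searched on both strands, occurred in 6.55% of 32851 such windows, which is 7.6% of the 27025 genes that have one. It occurred in 13 of 43 erythroid list members with a window (30.2%), among them Hba-a1, Hba-a2, Klf1, Rhag and Kel, and in 9 of the 25 of them that fell. A match of letters is a description and shows no binding.

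Of 10 tested iron genes 3 fell and 1 rose, 40% beside 23.7% of all genes. Fth1, the heavy chain of the iron store ferritin, ran from -0.52 to 1.40 in hyperoxia (median 0.29) and from -0.39 to 2.63 in normoxia (median 1.42), a difference of -1.15 ± 0.25 (adjusted p = 0.0166), and was lower on 7 of 7 slides. Ftl1, the light chain, differed by -1.06 ± 0.26. Slc11a2, an importer of iron, fell by 0.33 ± 0.09 but stood at 0.08 under median centring, and its other tested probes gave -0.10 and 0.02. Ireb2, a sensor of iron, rose by 0.27 ± 0.09. Among 27 tested antioxidant genes 5 fell and 1 rose, 22.2% beside 23.7% of all genes, so the list held no more calls than the background. The fallers were Gclm, part of the rate-limiting step of glutathione synthesis (-1.27 ± 0.32), Prdx2, a peroxiredoxin abundant in red cells (-1.27 ± 0.36), Gpx1 (-1.02 ± 0.31), Taldo1 (-0.86 ± 0.25, but 0.01 under median centring) and Nqo1 (-0.50 ± 0.11). Txn1, thioredoxin, rose by 0.68 ± 0.19. The median of the list was -0.13 relative to all genes with loess, but 0.10 under median centring and 0.01 with Cy3 alone. Of the 27 genes 13 lay above 0 and 14 below.

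Platelet genes were lower on 7 of 7 slides as a list, with wide spread between pups. The median of 17 tested genes was -0.98 with slide, -0.42 without it and -0.66 with the percentage of detected probes as a covariate. Of these genes 2 fell, 11.8% beside 23.7% of all genes. Ppbp, a platelet chemokine precursor, ran from 0.84 to 6.76 in hyperoxia (median 4.89) and from 2.29 to 7.31 in normoxia (median 5.90), a difference of -1.58 ± 0.50 (adjusted p = 0.0402) within slides and -0.90 without slide (adjusted p = 0.359). Treml1 of platelet granules differed by -1.36 ± 0.46 (adjusted p = 0.0490). Gp9 (-1.43 ± 0.50, adjusted p = 0.0574) and Pf4 (-1.17 ± 0.47, adjusted p = 0.0870) did not pass. Clu, clusterin, which platelets also store, ran from -1.25 to 5.26 in hyperoxia and from 1.02 to 5.43 in normoxia, a difference of -1.57 ± 0.51 (adjusted p = 0.0449). Hyperoxia replicate 10 held the lowest value of the platelet list by far, at a mean of 0.40. Normoxia replicate 9, on the same slide, held the lowest normoxia values of Ppbp (2.29) and Clu (1.02). The slide that hyperoxia replicate 10 shared with 3 normoxia pups gave a difference in the platelet mean of -2.32, while the other 6 slides lay between -1.74 and -0.14. Ppbp passed without only 7 of the 21 arrays in turn and Clu without only 5. Their differences stayed between -1.78 and -1.19 for Ppbp and between -1.80 and -1.035 for Clu. These calls lie near the threshold and depend on which pups are included.

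Of 18 tested genes of amino acid supply and the integrated stress response 5 fell and 1 rose, 33.3% beside 23.7% of all genes. The median was -0.48 with loess but 0.22 under median centring, -0.12 with the detection covariate and -0.09 with the erythroid covariate (relative to all genes -0.51 with loess, -0.28 under median centring, -0.76 with the software's signals). Trib3, a pseudokinase switched on by Atf4, ran from -3.56 to -1.68 in hyperoxia (median -2.82) and from -2.76 to 1.98 in normoxia (median -1.01). Of the 11 normoxia pups 6 lay above every hyperoxia pup, and the other 5 lay within the hyperoxia range. Its difference of -1.71 ± 0.54 (adjusted p = 0.0392) was the greatest fall of all genes, and 6 of 7 slides shared it. It passed without only 10 of the 21 arrays in turn, and it did not pass with Cy3 alone (adjusted p = 0.0583) or under median centring (adjusted p = 0.0906). Mthfd2, a mitochondrial folate enzyme, ran from -1.33 to 0.79 in hyperoxia and from -0.11 to 2.67 in normoxia, a difference of -1.39 ± 0.36 (adjusted p = 0.0224). Eif4ebp1, a brake on translation, differed by -0.84 ± 0.17 (adjusted p = 0.0148) and was lower on 7 of 7 slides. The serine tRNA ligase Sars (-0.48 ± 0.15, but 0.32 under median centring) and Vldlr (-0.33 ± 0.11) fell too, while Phgdh, the first enzyme of serine synthesis, rose by 0.61 ± 0.20.

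Pck2, the mitochondrial PEP carboxykinase and another gene that Atf4 switches on, lay outside the list and was named as one of the 10 greatest falls. It ran from -2.34 to -0.06 in hyperoxia (median -1.29) and from -1.03 to 1.31 in normoxia (median 0.18). The difference was -1.48 ± 0.29 (adjusted p = 0.0145), on 7 of 7 slides, and its other, weaker probe gave -0.21 (adjusted p = 0.0390). It stayed called whichever array was left out, and its value was -0.67 under median centring.

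Of 29 tested interferon genes 6 fell and 0 rose, 20.7% beside 23.7% of all genes called and 12.5% called lower. The list held no more calls than the background in both directions together, but more falls. Its members split into 14 above and 15 below 0, and its median was -0.13 relative to all genes with loess and 0.04 under median centring. Isg15, a ubiquitin-like protein induced by interferon, ran from 1.73 to 5.21 in hyperoxia (median 3.64) and from 3.03 to 5.89 in normoxia (median 5.26). Its difference was -1.44 ± 0.36 (adjusted p = 0.0213), and it was lower on 7 of 7 slides. Rsad2, viperin, differed by -1.09 ± 0.36 (adjusted p = 0.0444). Usp18 (-0.43 ± 0.10), Xaf1 (-0.33 ± 0.09) and Ifit1 (-0.58 ± 0.20) fell too. Under median centring Usp18 turned to 0.09 and Xaf1 to 0.25.

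The window before Isg15 is shown because it fell most among these genes. It lies at chr4:156200819-156201068, minus strand, GRCm38.p6 (RefSeq). Capitals mark the core of the interferon-stimulated response element, searched as GAAA, any 2 bases and GAAA, which matched 3 times in overlapping frames, 66 to 78 bases before the start.
Isg15: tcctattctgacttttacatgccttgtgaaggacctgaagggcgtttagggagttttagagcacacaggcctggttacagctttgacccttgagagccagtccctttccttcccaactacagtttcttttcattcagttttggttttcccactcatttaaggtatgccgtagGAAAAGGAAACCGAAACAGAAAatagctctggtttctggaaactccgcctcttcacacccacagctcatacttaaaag
These letters, on either strand, occurred in 2.98% of all windows and 3.46% of genes. They occurred in 13 of 23 interferon list members with a window (56.5%), including Isg15, Rsad2 and Ifit1, 3 of the 4 that fell and had one.

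Other leading falls were genes with a high ratio of blood to reference. Scd4, a desaturase, differed by -1.55 ± 0.37 (adjusted p = 0.0193) with its brightest probe, and its other, weaker probe stood at 0.05. Pnldc1, an exonuclease, differed by -1.47 ± 0.36, the pseudogene Cyp4b1-ps2 by -1.45 ± 0.36 and the uncharacterised Gm35438 by -1.48 ± 0.39. All 4 were lower on 7 of 7 slides. With the erythroid mean as a covariate they were between -0.18 and -0.39, with adjusted p from 0.763 to 0.873, and Isg15 was -0.16 (adjusted p = 0.833). In that fit 0 probes passed, and differences between genes were not tested.

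**Figure D2:**
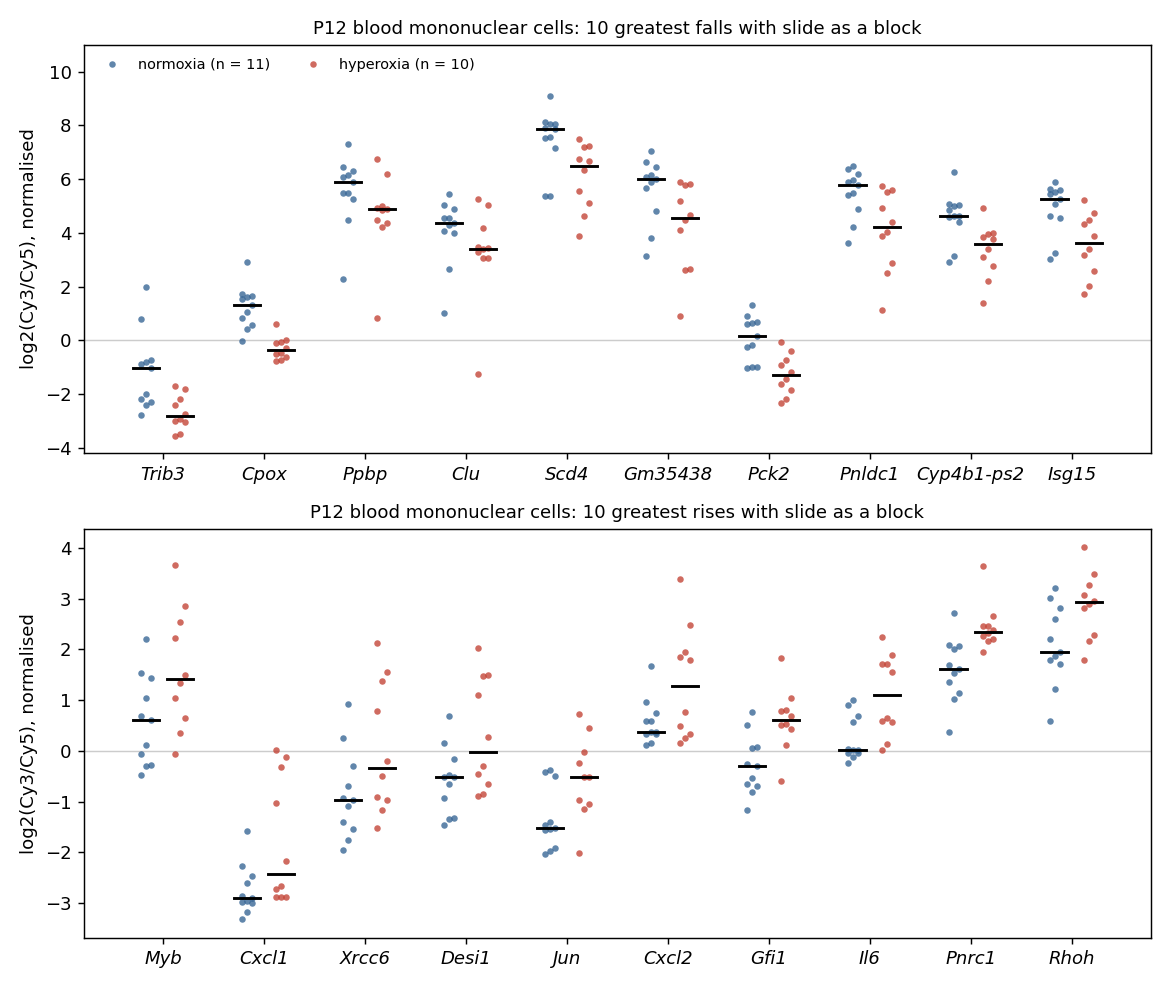
Normalised log2(Cy3/Cy5) of the 10 genes with the greatest falls (top) and the 10 with the greatest rises (bottom) among those called with slide as a block. Each point is 1 pup, blue for normoxia (n = 11) and red for hyperoxia (n = 10), and black lines are medians. Cpox shows the least overlap among the falls. The lowest point of Ppbp and Clu is hyperoxia replicate 10, and their lowest normoxia point is normoxia replicate 9, of the same slide.

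Of 21 tested chemokine, cytokine and NF-kB genes 6 rose and 1 fell, 33.3% called beside 23.7% of all genes, and the median was 0.16. Cxcl1, a neutrophil attractant, ran from -2.88 to 0.01 in hyperoxia (median -2.42) and from -3.31 to -1.57 in normoxia (median -2.90). Of the 10 hyperoxia pups 4 lay above every normoxia pup, from -1.02 upwards, and the other 6 lay within the normoxia range. The difference was 1.15 ± 0.38 (adjusted p = 0.0469), and the probe was well above background in 10 of 10 hyperoxia and 9 of 11 normoxia pups. Cxcl2, its close relative, ran from 0.16 to 3.39 in hyperoxia (median 1.29) and from 0.11 to 1.68 in normoxia (median 0.38), a difference of 0.98 ± 0.28 (adjusted p = 0.0307). Il6, an acute-phase cytokine, ran from 0.01 to 2.25 in hyperoxia (median 1.10) and from -0.25 to 0.998 in normoxia (median 0.02). The difference was 0.93 ± 0.26 (adjusted p = 0.0272), above 0 on 7 of 7 slides but uneven. It was only 0.03 on slides 1 and 4, and 2.29 on slide 3. Hyperoxia replicates 2, 3, 5 and 9 held the highest Cxcl1 and Il6 values and lay above every normoxia pup in Cxcl2. Tnfaip3, which shuts NF-kB signalling down, rose by 0.81 ± 0.20, the mRNA-decay factor Zfp36 by 0.60 ± 0.17 and the chemokine Ccl3 by 0.55 ± 0.18. Ptgs2, cyclooxygenase 2, fell by 0.28. These signals were weak, and the software's signals gave 2.51 for Cxcl1, 1.92 for Cxcl2 and 1.69 for Il6. Cxcl1 passed without 9 of the 21 arrays in turn, Cxcl2 and Il6 without 14.

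The window before Cxcl1 is shown because the kB motif is rare and lies before each of these 3 cytokine genes. It is at chr5:90890995-90891244, plus strand, GRCm38.p6 (RefSeq), and capitals mark a match to the kB motif, searched as GGGA, any base and TTTCC, beginning 71 bases before the start.
Cxcl1: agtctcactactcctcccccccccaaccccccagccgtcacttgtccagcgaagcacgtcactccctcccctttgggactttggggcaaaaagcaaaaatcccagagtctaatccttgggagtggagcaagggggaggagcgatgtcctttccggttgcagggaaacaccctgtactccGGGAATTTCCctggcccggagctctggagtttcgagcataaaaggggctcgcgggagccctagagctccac
The motif, on either strand, occurred in 0.356% of all windows, in 0.414% of genes and in 5 of 16 list members with a window: Cxcl1, Cxcl2, Il6, Nfkb2 and Nfkbia. The first 3 rose.

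Immediate early genes, which cells switch on within minutes of a stimulus, included 3 rises and 1 fall among 16 tested, 25% beside 23.7% of all genes, a share near the background. Jun ran from -2.01 to 0.73 in hyperoxia (median -0.52) and from -2.02 to -0.37 in normoxia (median -1.51), a difference of 0.996 ± 0.26 (adjusted p = 0.0228), and was higher on 7 of 7 slides. Fos ran from -0.40 to 2.41 and from -0.31 to 1.15, a difference of 0.88 ± 0.24 (adjusted p = 0.0256), also on 7 of 7 slides. Junb rose by 0.65 ± 0.20. Jund, another member of the Jun family, fell by 0.84 with loess (± 0.22) but stood at 0.04 under median centring.

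Myb, a factor of blood progenitors, showed the greatest rise of all genes. It ran from -0.06 to 3.66 in hyperoxia (median 1.42) and from -0.47 to 2.22 in normoxia (median 0.62), a difference of 1.20 ± 0.34 (adjusted p = 0.0283), and the other 2 tested probes gave 0.26 and 0.40. Gfi1, a repressor in neutrophil and lymphocyte development, rose by 0.94 ± 0.21 (adjusted p = 0.0169) on 7 of 7 slides. Rhoh, a GTPase of lymphocytes, ran from 1.80 to 4.01 in hyperoxia and from 0.59 to 3.20 in normoxia, a difference of 0.89 ± 0.18 (adjusted p = 0.0142) on 7 of 7 slides. Xrcc6, the Ku70 protein of DNA end joining, rose by 1.14 ± 0.34 and Desi1, a SUMO protease, by 1.10 ± 0.32, with its other probes at 0.15 and 0.11. Among 10 tested progenitor genes 5 were called, 50% beside 23.7% of all genes. Runx1 (0.57 ± 0.16, with 1 of 3 probes lower) and Kit (0.25 ± 0.08) rose with Myb, and Hoxa9 (-0.32 ± 0.08) and Lmo2 (-1.10 ± 0.31), which red cell precursors also use, fell.

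Pnrc1, a nuclear receptor coactivator, had the smallest adjusted p of all genes with slide. It ran from 1.94 to 3.65 in hyperoxia (median 2.35) and from 0.38 to 2.71 in normoxia (median 1.62), a difference of 0.91 ± 0.11 (adjusted p = 0.00669). It was higher on 7 of 7 slides, by 0.42 to 1.56, and stayed called whichever array was left out. With the erythroid covariate it was 0.80 (adjusted p = 0.464).

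**Figure D3:**
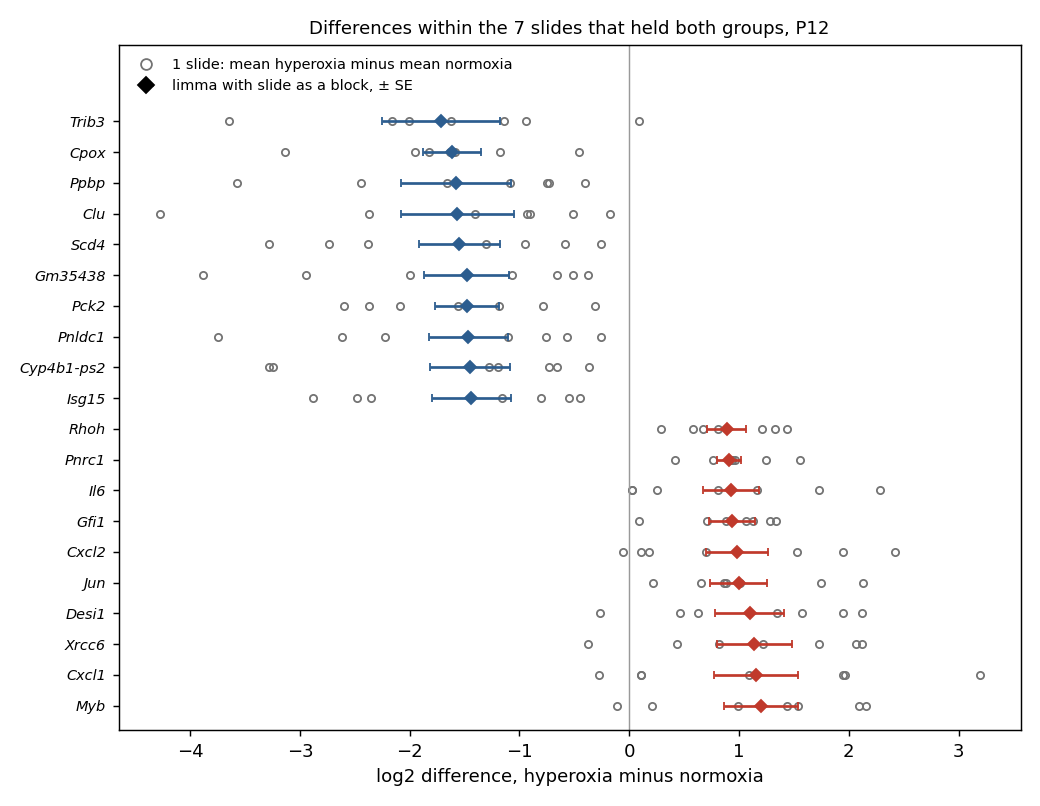
Log2 difference, hyperoxia minus normoxia, for the same 20 genes. Open circles are the 7 slides that held both groups (mean of the hyperoxia arrays minus mean of the normoxia arrays), and diamonds with bars are the limma estimate with slide as a block ± SE. For 14 of the 20 genes all 7 slides lie on 1 side of 0, and for the other 6 genes 1 slide crosses it. The genes were chosen by the fit over these same slides, so this agreement is partly built in.

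Lists of proteasome, respiratory chain and ribosomal protein genes had medians above 0 with loess, by small amounts. Of 31 tested proteasome genes 15 rose and 1 fell, 51.6% beside 23.7% of all genes, with a median of 0.35. Psmd3 of the proteasome lid ran from -1.33 to 0.03 in hyperoxia and from -2.00 to -0.40 in normoxia, a difference of 0.72 ± 0.13 (adjusted p = 0.0121) on 7 of 7 slides, but its other tested probe gave 0.0095 (adjusted p = 0.934). Psmd4, a ubiquitin receptor, fell by 0.73 ± 0.21. Of 26 respiratory chain genes 8 rose and 2 fell (median 0.26), with Uqcrfs1 of complex III at 0.56 ± 0.11 and Sdha of complex II at 0.48 ± 0.10 (its other probe 0.09), while Atp5b fell by 0.69. Of 63 ribosomal protein genes 20 rose and 2 fell, with a median of 0.17, and Rpl29 rose by 0.26 ± 0.04 and Rpl27 by 0.25 ± 0.04 (0.11 with the software's signals). Many ribosomal genes have near-identical processed copies, so these probes may read several. Relative to all genes the ribosomal median was 0.15 with loess and -0.06 with the software's signals, so the direction of this list depended on the scaling. The proteasome and respiratory medians stayed above 0 under all 4 scalings (0.14 to 0.60 and 0.06 to 0.52). With the detection and the erythroid covariates, however, the proteasome median was 0.05 and 0.02, and that of the respiratory chain -0.03 in both fits.

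Lists of the leukocyte types themselves held few calls. Among 22 T cell, 22 B cell and 20 monocyte and dendritic cell genes 0 passed with slide as a block, and among 23 neutrophil genes 1 fell, Elane (-0.53 ± 0.15, adjusted p = 0.0281). Elane turned to 0.18 under median centring. The T cell median was 0.41, with Cd8a at 0.93 ± 0.32 (adjusted p = 0.0517) and Lck at 0.75 ± 0.28 (adjusted p = 0.0698) but Cd27 at -0.54 ± 0.20 (adjusted p = 0.0604), and relative to all genes it was 0.39 with loess and -0.01 with the software's signals. The B cell markers Cd79a (-0.07 ± 0.15) and Ms4a1 (0.42 ± 0.36) and the monocyte marker Csf1r (0.03 ± 0.23) differed by less than 2 standard errors. S100a8 and S100a9 of neutrophils gave 0.31 ± 0.48 and -0.05 ± 0.36, and Retnlg gave -0.30 ± 0.34. With the software's signals S100a9 stood at -1.05 (adjusted p = 0.0323) and Retnlg at -1.002 (adjusted p = 0.0289), so the values of these neutrophil genes depended on the scaling. Of 14 tested NK and cytotoxic genes 3 were called, 21.4% beside 23.7% of all genes. Granzyme A (Gzma) rose by 0.78 ± 0.23 on 7 of 7 slides but gave 0.18 with the software's signals (adjusted p = 0.619), Fasl passed at 0.11 ± 0.04 with a probe above background in 6 of 10 hyperoxia and only 2 of 11 normoxia pups, so that it entered the test through the higher group, and Prf1, perforin, fell by 0.18 but stood at 0.28 under median centring. Of 30 cell division genes 2 rose, Pcna (0.84 ± 0.23) and Mcm4 (0.67 ± 0.22), with a median of 0.39. This was 6.67% of the list, under the share of all genes called.

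Of 28 tested genes of the hypoxia response 5 fell and 3 rose, 28.6% beside 23.7% of all genes, with a median of 0.06. Car9, a carbonic anhydrase induced in low oxygen, ran from -0.55 to 0.58 in hyperoxia (median 0.21) and from -0.33 to 1.30 in normoxia (median 0.95), a difference of -0.64 ± 0.15 (adjusted p = 0.0183). P4ha1 (-0.41 ± 0.09, but 0.10 under median centring and -0.16 with the software's signals), Mxi1 (-1.05 ± 0.26), Ankrd37 (-0.31 ± 0.09) and Adm, the vasodilator adrenomedullin (-0.28 ± 0.08), fell too. Hif1a, the oxygen-regulated factor itself, rose by 0.47 ± 0.10 on 7 of 7 slides, Egln1, the enzyme that marks it for degradation, by 0.49 ± 0.13, and Higd1a by 0.38 ± 0.09. Glycolytic genes had a median of 0.01, with Slc2a3, a glucose transporter, down by 0.83 ± 0.28 and Gpi1 up by 0.23 ± 0.08 (0.13 with the software's signals) among 18 tested.

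Of 25 genes of vessel growth 16 were tested, and 6 fell with 0 rises, 37.5% beside 23.7% of all genes. Angpt2, which loosens vessels, ran from -0.17 to 0.81 in hyperoxia (median 0.06) and from -0.12 to 1.02 in normoxia (median 0.50), a difference of -0.41 ± 0.11 (adjusted p = 0.0239). Pgf, placental growth factor, differed by -0.20 ± 0.04 (adjusted p = 0.0161), Pdgfb by -0.30 ± 0.09 and Vegfb by -0.33 ± 0.09. Adm stands in this list too. Under median centring Angpt2 was near 0 (7e-04) and Vegfb 0.23, and Vegfb was also above 0 with the software's signals (0.09) and with Cy3 alone (0.05). Pgf stayed below 0 in all 4.

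Among 22 tested p53 targets 3 rose and 3 fell, 27.3% beside 23.7% of all genes. Trp53inp1 (0.69 ± 0.18) and the death receptor Fas (0.51 ± 0.14) rose, Aen rose by 0.28, and Gadd45a (-0.81 ± 0.27), Sesn2 (-0.22 ± 0.08) and Trp53 itself (-0.26 ± 0.06) fell. Trp53 was 0.34 under median centring. Of 12 heat shock genes Hspe1 rose by 0.28 ± 0.08, although 1 of its 3 probes was lower, and Hspb1 fell by 0.55 ± 0.15 but stood at 0.18 under median centring. Of 10 glucocorticoid targets 0 passed; Sgk1 gave 0.54 ± 0.22 (adjusted p = 0.0927) and Fkbp5 0.50 ± 0.27 (adjusted p = 0.184).

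**Figure D4:**
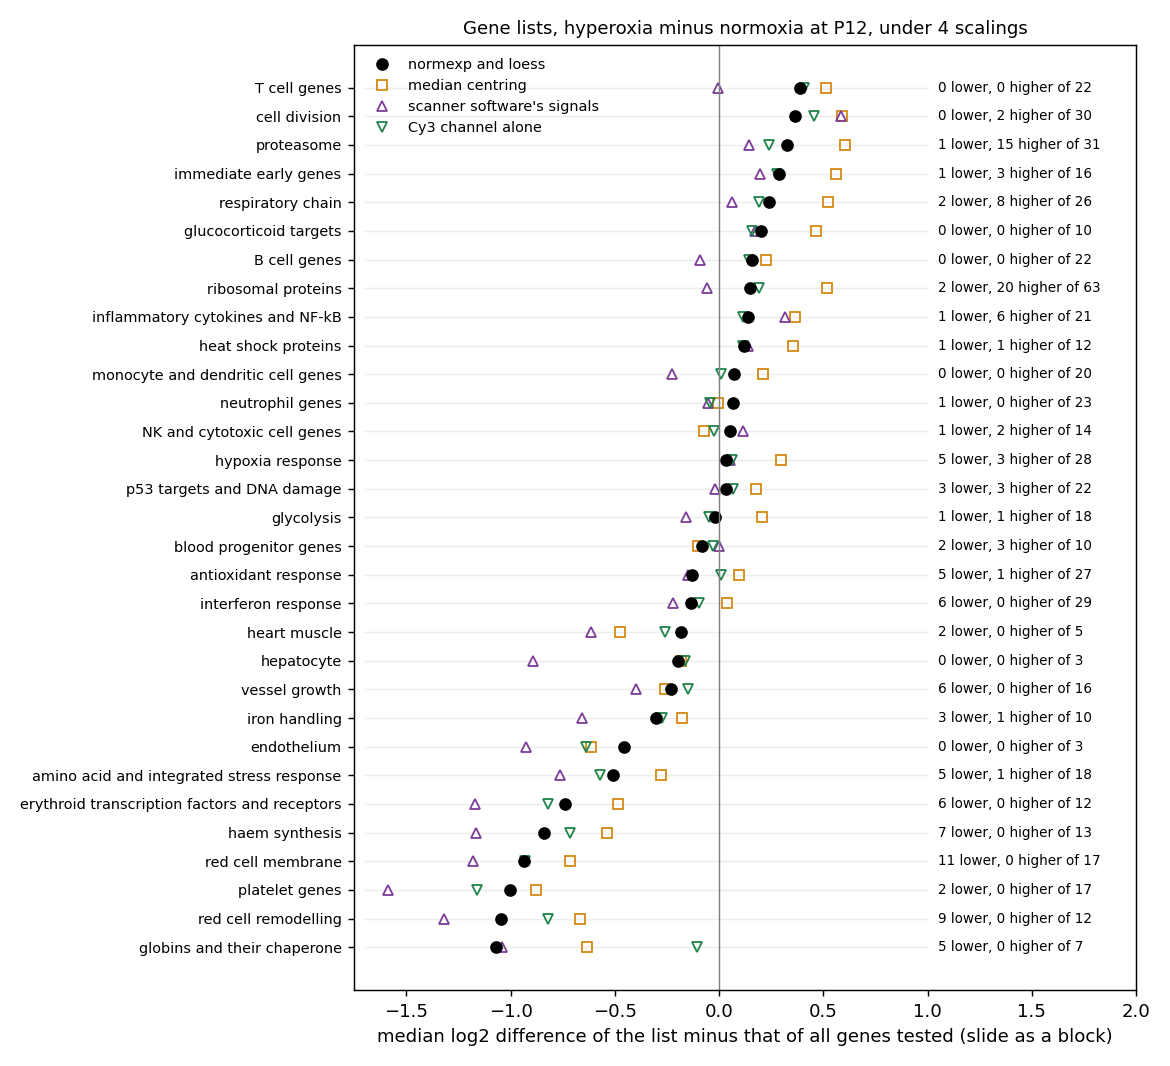
Median log2 difference of each of 31 gene lists, hyperoxia minus normoxia at P12 with slide as a block, minus the median of all 13828 genes under the same scaling. Black points are the normexp and loess values, and open symbols are median centring, the scanner software's signals and Cy3 alone. The counts at right are called genes of those tested. The 5 erythroid lists and those of platelet, amino acid, iron, vessel growth, heart muscle, endothelium, hepatocyte and progenitor genes lie below 0 under all 4 scalings.

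Blood drawn from the heart can carry other tissue. Among heart muscle genes 5 of 10 passed the filter and 2 were called, 40% beside 23.7% of all genes, and of the defining markers Tnni3 and Myl3 did not. Actc1, cardiac actin, fell by 0.47 ± 0.10 (adjusted p = 0.0161) and Tnnt2 by 0.24 ± 0.08, but under median centring they stood at 0.02 and 0.03. Myh6 gave -0.16 ± 0.09. The mean of the tested heart genes had a median of -0.27 in hyperoxia and -0.18 in normoxia. Of the endothelial markers Cdh5, Tek and Emcn, and of the liver markers Alb, Apoa1, Ttr and Serpina1a, 0 passed the filter. Of 8 listed genes each, 3 endothelial and 3 liver genes were tested and 0 were called. The endothelial genes Esam (-0.59 ± 0.25, adjusted p = 0.101), Plvap (-0.43 ± 0.21, adjusted p = 0.142) and Kdr (-0.07 ± 0.08) were all below 0, and their median of -0.43 was below that of all genes under each of the 4 scalings (-0.46 to -0.93 relative to it). Their part in the vessel growth values was not tested.

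Without slide, the genes with the 5 smallest unadjusted p were Cpox, Atf2, Tiparp, Zkscan17 and Agfg1. Atf2, a bZIP factor, ran from -0.28 to 0.27 in hyperoxia and from -0.63 to 0.03 in normoxia, a difference of 0.43 ± 0.06 within slides (adjusted p = 0.00816), though another of its 3 probes gave -0.14 (adjusted p = 0.0395). Tiparp, a mono-ADP-ribosyl transferase, ran from -0.04 to 1.36 and from -0.66 to 0.22, a difference of 0.86 ± 0.14 (adjusted p = 0.0121). Zkscan17, a zinc finger gene, gave 0.50 ± 0.09 and Agfg1 -0.48 ± 0.09, and Agfg1 turned to 0.15 under median centring. All 4 kept 1 direction on 7 of 7 slides and stayed called whichever array was left out, as did Cpox, Pck2, Pnrc1 and Rhoh, 8 of the 24 genes named for their size or p.

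The series also holds other pups of the same exposures bled at P17 and P28. Littermates may be spread over the ages, so these values may not be independent of P12. In a fit of all 66 arrays with slide as a block, the 10 greatest falls had a median of -1.37 on P12, of -0.63 on P17 and of -0.64 on P28, beside 0.01 for all probes at each age. All 10 were below 0 at both later ages. The falls and rises were chosen for their size at P12, so smaller values at other ages partly follow from the choice. Genes measured in the same pups are also not independent observations. In this fit 5 of the 10 falls and 4 of the 10 rises passed at P12, and 0 of either at P17 or P28. Pnldc1 (-1.31 ± 0.51), Cyp4b1-ps2 (-1.18 ± 0.46) and Gm35438 (-1.12 ± 0.52) were the largest at P17. Cpox was -0.20 ± 0.35 and Trib3 -0.23 ± 0.45 there. The 10 greatest rises had medians of 0.89, 0.39 and 0.23, and 9 of 10 were above 0 at each later age. The difference between ages was tested for each gene. For these 20 genes the adjusted p of P17 minus P12 lay between 0.433 and 0.997 and that of P28 minus P12 was 0.995, so none was shown to differ between ages. Cpox gave 1.39 for P17 minus P12, with an adjusted p of 0.433. Trp53 was the one named gene that did differ: its oxygen difference was -0.34 ± 0.09 at P12 and 0.39 ± 0.10 at P17 (adjusted p = 0.0129 for the difference). The P17 difference itself did not pass (limma, adjusted p = 0.172). In the fit of the P12 arrays Trp53 was 0.34 under median centring and did not pass with the software's signals (adjusted p = 0.122).

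**Figure D5:**
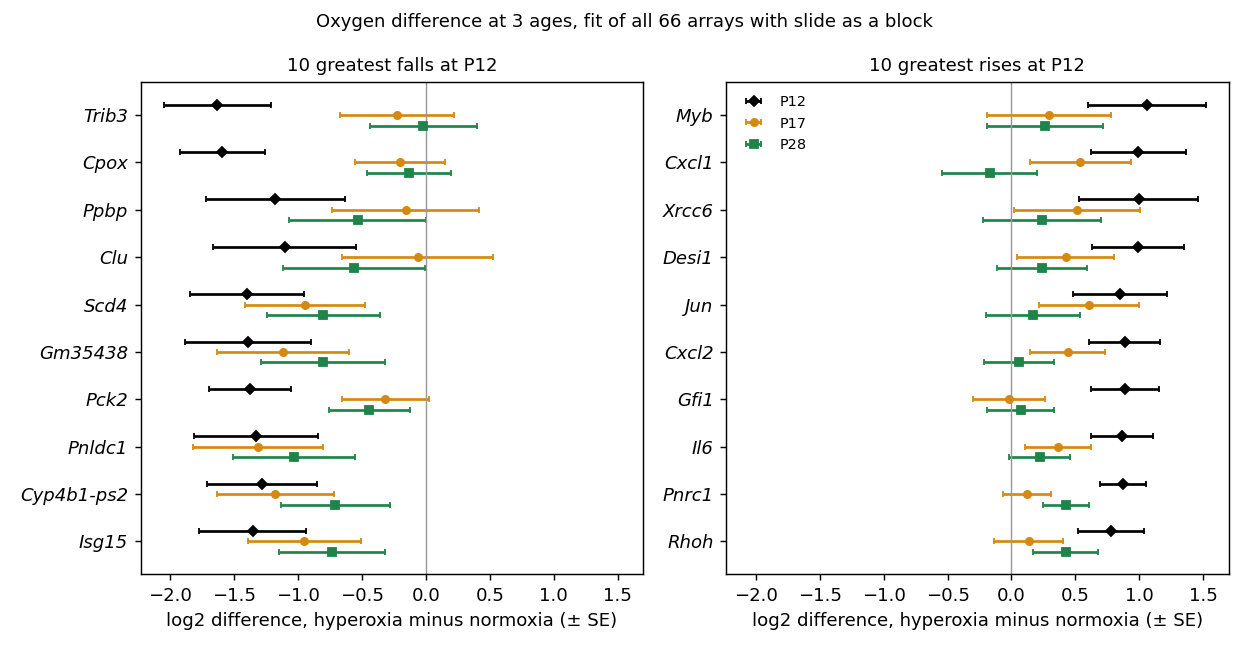
Oxygen difference, hyperoxia minus normoxia (log2, ± SE), of the 10 greatest falls (left) and the 10 greatest rises (right) at P12 in a fit of all 66 arrays with slide as a block. Black diamonds are P12, orange circles P17 and green squares P28. All 10 falls lie below 0 at every age, and 9 of the 10 rises lie above 0 at each later age. The genes were chosen for their size at P12.

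The percentage of detected probes and the loess-normalised erythroid mean differed with oxygen in these pups, while the erythroid mean before scaling was higher on 4 and lower on 3 of 7 slides. With the percentage of detected probes as a covariate beside slide, 0 probes passed in limma (938 at an unadjusted p under 0.05), and with the erythroid mean as a covariate 0 passed (2442). The second measure is made from genes of this report. In the fit with the erythroid covariate Cpox was -0.89 (adjusted p = 0.496), Trib3 -1.27 (adjusted p = 0.686), and Ppbp -1.32 (adjusted p = 0.646). Of the 10 greatest rises Cxcl1 was 0.14, Cxcl2 0.38, Il6 0.41, Xrcc6 0.50 and Rhoh 0.52 in that fit. Desi1 was 0.57, Jun 0.61, Myb 0.65, Gfi1 0.72 and Pnrc1 0.80, and all 10 were smaller than with slide alone. Outside these 10, Junb (1.02), Tnfaip3 (0.97) and Tiparp (0.97) were larger than with slide alone. Other rises, such as Fos (0.85) and Pcna (0.28), were smaller. The part of either measure in the results was not tested further.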

How the data were processed

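Blood mononuclear RNA (Cy3 by intensity, Cy5 by the labels) and reference RNA were hybridised to 2-colour Agilent arrays of 62976 spots. The scanner files came from Agilent's Feature Extraction, version 10.7.3.1. The authors deposited the scanned median and background intensities, the background-subtracted and dye-normalised processed intensities and detection flags that this software wrote. The authors also deposited its log10 ratio of Cy5 over Cy3, computed from the processed signals. The deposited series matrix holds log2 ratios whose scale and centring are not stated. It correlated with log2(Cy3/Cy5) on every P12 array (lowest r 0.527), with column medians from -0.25 to -0.01.

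Median intensities were background-corrected (normexp, offset 50), loess-normalised within arrays, turned to log2(Cy3/Cy5) and averaged per probe in R 4.3.3. Outlier spots and controls were left out. Symbols came from RefSeq accessions (GRCm38.p6): 33006 of 56605 probes matched 1 and 23599 none. limma 3.58.1 (lmFit, eBayes, Benjamini-Hochberg) compared hyperoxia with normoxia without slide, the study's design, and with slide as a block. A gene is its brightest tested probe. Of 605 listed genes in 31 lists, 597 were on the array and 557 tested.

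Genes were named by rule: the 5 smallest p without slide, the 10 greatest rises and 10 greatest falls called with slide, up to 4 members of each list by p, and cell type markers. Further called list members named in the text were chosen after their values were seen. The genes, lists and comparison were chosen with earlier results of these data known. The fits were tested on simulated data. P12 normoxia titles repeat the mouse numbers of P12 hyperoxia while their files carry other numbers, so groups were taken from title and oxygen label, which match each other. P12 arrays were scanned on 2 days, with 1 array of each group on the later day. The labels and the study name different RNA kits. Alternatives covered scaling, filters, weights, blocks, covariates and each array left out. Some genes that met the naming rule are not reported here.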

Additional observations from a re-analysis of the deposited data

Results flagged for a closer look

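Among 55 sets of 10 hyperoxia values examined (24 named genes and 31 list means), 4 held a pup set apart from the others by a wide gap. Chance gives about 1 in 20. Hyperoxia replicate 10 had the lowest Ppbp (0.84), the lowest Clu (-1.25) and the lowest mean of the platelet genes (0.40), which are related values. Hyperoxia replicate 1 had the highest Pnrc1 (3.65). The 11 normoxia pups were too many for this rule. The oxygen difference of Trp53 was higher at P17 than at P12 by 0.73 ± 0.13 (limma, adjusted p = 0.0129), but the P17 difference itself did not pass (adjusted p = 0.172).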

How the results depend on the processing

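Within slides, the 5936 calls became 14771 under median centring (14402 higher), 1757 in a fit of all 6 groups, 1 with Cy5 alone and 0 with the erythroid or the detection covariate. Leaving out 1 array gave 979 to 6743. Without slide, the 0 calls became 1 under median centring, 1732 with array weights, 762 with slide as a random block and 5936 with it as a fixed block, and leaving out 1 array gave 0 to 153, the last without normoxia replicate 1. Other alternatives kept both counts within 1.5 times. The replicate block on the mouse number of the titles gave 938 calls: 8 of 10 same-numbered pairs had deviations correlated over 0.1, but 5 of the 10 shared a slide, and the number marks no shared animal. Calls shared with the main ones were 64.6% of them with the software's signals, 48.3% under median centring and 82.6% with Cy3 alone. Of 504 results from leaving out an array for 24 named genes, 395 stayed called and 0 reversed. Agfg1 reversed under median centring (0.15). Cy5 alone by intensity holds the reference, which was the same on every array, so its signs do not test the directions above. Its sign was opposite, with small values, for Cxcl1 (-0.0312), Xrcc6 (-0.0059), Jun (-0.0441), Cxcl2 (-0.0213), Il6 (-0.025) and Cpox (0.0467). The same held for Clu (0.10), Pck2 (0.11), Zkscan17 (-0.0298), Agfg1 (0.0889) and Atf2 (-0.0406). The causes of the changes under other processing were not tested. Signal over background limits weak genes.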
